A study of Mus musculus with 12 samples.

Results

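Ip6k3, Vnn3, Vnn1, Zc3h6, Aqp3, Jsrp1, Draxin and Dmpk are 8 of the 21834 genes counted in BV2 cells, and they were matched by gene name. They were selected on their counts, for the largest changes after oxygen-glucose deprivation and reoxygenation (OGD/R) or between a control line and a line with Anxa2 knocked down. Their levels and fold changes below are therefore a description, with no test. Of the 8 genes, 7 had counts, and those 7 entered the model fitted over 11626 genes. Vnn1 had no count in any library, so it cannot have been selected for a change in its own counts. By the sample names, the log2 fold change after OGD/R had opposite signs in the control and the knockdown line for all 7, and also for 82.0% of all genes tested (44.4% when each change also had to pass an adjusted p of 0.05).

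BV2 is an immortalized mouse microglial line. Cells had received a lentiviral pLKO.1 vector with a control shRNA (shCtrl) or with 1 shRNA against Anxa2 (shAnxa2), and puromycin selection had given a stable line of each. Whether a line was a pool or a clone is not given in the sources used here, so a difference between the lines is a difference between these lines. Each was left untreated (CTRL) or kept for 4 h in glucose-free medium at low oxygen and then returned to normal conditions (OGDR), for 12 h by the sample labels and for longer by the study's methods. The groups shCtrl-CTRL, shCtrl-OGDR, shAnxa2-CTRL and shAnxa2-OGDR held 3 libraries each. They follow the sample names, and other label fields of the same samples assign the knockdown by treatment.

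The 12 libraries held 19521877 to 27288843 counts. Anxa2, the targeted gene, had 3938 to 7717 counts in shCtrl and 357 to 1052 counts in shAnxa2 libraries, which fits the line in each sample name. By these names its log2 fold change after OGD/R was 0.70 (SE 0.0643) in shCtrl and −1.04 (SE 0.0827) in shAnxa2 cells. The knockdown line thus differed from the control line by −2.09 (SE 0.0714) untreated and by −3.83 (SE 0.0782) after OGD/R. All 12 markers of microglia and myeloid cells passed the filter on low counts. Their summed level in CPM (counts scaled to library size with edgeR's TMM factors) differed between the lines. It was 4173 to 4306 CPM in shCtrl-CTRL and 4381 to 4714 in shCtrl-OGDR. In shAnxa2-CTRL it was 3648 to 3951 and in shAnxa2-OGDR 3649 to 3708, below every shCtrl library. Ip6k3, Jsrp1 and Dmpk are best known from muscle, so 12 skeletal muscle markers were read as well, of which 4 passed the filter and 4 (Myh2, Myh4, Mb and Myog) were at 0 throughout. Their sum was 11.5 to 14.4 CPM in shCtrl-CTRL, 16.6 to 19.5 in shCtrl-OGDR, 9.53 to 11.6 in shAnxa2-CTRL and 6.87 to 9.41 in shAnxa2-OGDR. It was thus highest in shCtrl-OGDR, where Ip6k3 and Jsrp1 were highest. Dmpk was low in that group, at a mean of 0.617 CPM against 3.81 in shCtrl-CTRL. Ip6k3 was also high in shAnxa2-CTRL, at 4.16 CPM, where the sum was below that of shCtrl-OGDR. The part of this sum in the values of these genes was not tested. In bulk RNA, fewer cells that express a gene and less of its RNA per cell cannot be told apart.

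The treatment in each sample name was read against 20 genes known to be induced by low oxygen, a list written with the results known, of which 18 were tested. From CTRL to OGDR 13 of them rose and 2 fell in shCtrl cells (adjusted p under 0.05, edgeR), beside 32.4% and 31.0% of all genes, whereas 1 rose and 13 fell in shAnxa2 cells, beside 28.2% and 26.8%. Their median log2 fold change was 0.50 in shCtrl and −0.49 in shAnxa2 cells. Of these genes, 12 rose in the first and fell in the second, with an adjusted p under 0.05 in both. At that limit 44.4% of all genes had opposite signs in the lines, in either order. Bnip3, a mitophagy receptor, had mean levels of 67.1, 215, 182 and 39.6 CPM in shCtrl-CTRL, shCtrl-OGDR, shAnxa2-CTRL and shAnxa2-OGDR, and Pdk1, a kinase that holds back pyruvate oxidation, had 149, 249.9, 227 and 150.1 CPM. Pfkfb3 ran the other way, with a log2 fold change of −0.20 in shCtrl and 0.43 in shAnxa2 cells. P4ha1 fell in shCtrl cells (−0.25), and Slc2a1, Hk2 and Kdm3a passed in neither direction there. Most of the 18 genes thus followed the treatment names in shCtrl cells and ran against them in shAnxa2 cells, where the libraries labelled CTRL were high. The list includes Vegfa and Ndrg1, which were also among the genes most like Zc3h6. Treated cells of both lines had been back in normal conditions for 12 h or longer, and no library was taken at low oxygen. The list, written with the results known, therefore cannot show which libraries were treated. Whether the CTRL and OGDR names of the shAnxa2 libraries were exchanged was not tested. Every direction given below for shAnxa2 cells, every difference between the lines and every interaction rests on these names. With the names exchanged, each change of opposite sign in the lines would become a change of the same sign, and the differences between the lines would be those between shAnxa2-CTRL and shCtrl-OGDR and between shAnxa2-OGDR and shCtrl-CTRL, which are given as well.

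The 8 genes come from separate pathways. Ip6k3 is an inositol hexakisphosphate kinase, a member of a small family that makes inositol pyrophosphates, signals of energy and phosphate status. Vnn1 and Vnn3 encode vanins, pantetheinases that split pantetheine into cysteamine and pantothenate, the vitamin from which coenzyme A is made. Zc3h6 has zinc fingers of the CCCH type, found in many RNA-binding proteins. Aqp3 is an aquaglyceroporin, a channel for water and glycerol. Jsrp1 sits in the junctional sarcoplasmic reticulum of muscle, where it binds the dihydropyridine receptor and calsequestrin. Draxin is a secreted axon guidance protein that binds netrin receptors and inhibits Wnt signaling. Dmpk is the kinase whose gene carries the repeat expanded in myotonic dystrophy.

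Promoters from RefSeq (build GRCm38.p6, 250 bases before to 50 bases after the annotated start) were matched by symbol for 6 of the 8 genes. Printed here are those of the 4 genes that were high in both shCtrl-OGDR and shAnxa2-CTRL and of Dmpk, which was low in both, so that the windows of like and of opposite patterns can be read side by side. They run 5′ to 3′ on the strand of the gene, and capitals mark matches, on either strand, of GGGCGG (the core of the GC box), TATAAA (the TATA box), TTNNGCAA and TGACNNNGC. Ip6k3 (chr17:27167715-27168014) and Aqp3 (chr4:41098134-41098433) lie on the minus strand, and Zc3h6 (chr2:128967152-128967451), Vnn3 (chr10:23851212-23851511) and Dmpk (chr7:19083608-19083907) on the plus strand.
Ip6k3: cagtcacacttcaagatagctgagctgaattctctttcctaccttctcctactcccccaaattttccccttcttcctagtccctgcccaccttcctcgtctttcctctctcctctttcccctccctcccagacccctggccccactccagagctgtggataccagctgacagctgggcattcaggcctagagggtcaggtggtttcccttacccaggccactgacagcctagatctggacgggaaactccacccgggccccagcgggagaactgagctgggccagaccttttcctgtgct
Aqp3: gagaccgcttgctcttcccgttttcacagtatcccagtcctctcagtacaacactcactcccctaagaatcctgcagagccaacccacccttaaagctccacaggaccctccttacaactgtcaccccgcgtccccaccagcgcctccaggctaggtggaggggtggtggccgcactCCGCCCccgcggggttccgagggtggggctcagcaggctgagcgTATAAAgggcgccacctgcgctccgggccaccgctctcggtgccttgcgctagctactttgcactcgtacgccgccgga
Zc3h6: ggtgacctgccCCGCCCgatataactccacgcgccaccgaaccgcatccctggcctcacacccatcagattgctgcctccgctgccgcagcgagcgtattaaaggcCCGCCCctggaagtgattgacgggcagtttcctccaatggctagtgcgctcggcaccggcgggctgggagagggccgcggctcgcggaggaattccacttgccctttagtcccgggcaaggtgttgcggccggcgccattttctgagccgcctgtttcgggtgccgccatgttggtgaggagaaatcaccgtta
Vnn3: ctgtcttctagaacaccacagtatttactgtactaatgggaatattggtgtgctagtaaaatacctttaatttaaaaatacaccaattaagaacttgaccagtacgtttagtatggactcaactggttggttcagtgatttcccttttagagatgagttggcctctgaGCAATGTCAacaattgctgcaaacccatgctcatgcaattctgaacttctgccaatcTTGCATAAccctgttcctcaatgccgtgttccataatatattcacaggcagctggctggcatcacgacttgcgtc
Dmpk: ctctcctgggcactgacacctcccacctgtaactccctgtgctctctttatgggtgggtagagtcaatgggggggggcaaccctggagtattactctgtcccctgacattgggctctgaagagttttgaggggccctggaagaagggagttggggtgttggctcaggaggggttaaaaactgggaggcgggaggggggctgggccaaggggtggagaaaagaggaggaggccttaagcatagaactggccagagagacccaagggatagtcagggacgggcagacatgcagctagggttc
Ip6k3 and Dmpk had no match of these motifs, and no motif was shared by all 5 windows. CG pairs numbered 4 in the window of Ip6k3, 4 in Vnn3 and 2 in Dmpk, against a median of 7 over all 32851 promoters. Zc3h6, Aqp3 and Draxin had 28, 21 and 39. GGGCGG was found in Zc3h6, Aqp3 and Draxin and in 35.7% of all promoters. TATAAA (13.6% of all promoters) lay 29 bases before the start of Aqp3. Vnn3 had a TTNNGCAA (10.8%) at 25 bases and a TGACNNNGC (12.4%) at 82 bases before its start. CACGTG (7.15%), its overlapping core ACGTG (19.6%), TGANTCA (7.81%), TGACGTCA (1.79%), TGATGNAA (3.97%), GAGGAAGT (3.2%) and TTCNNNGAA (8.3%) were in none of the 6 windows, nor was the interferon response motif searched (3.44%). A loose kappaB motif, not set in capitals, was found in 5 of the 6 windows and in 50.8% of all promoters. These are matches of letters, and no binding was measured.

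Ip6k3 (ENSMUSG00000024210), on the minus strand of chromosome 17 (27362939 to 27386769 in the deposited table, for which the submitters' processing notes name mm39), had the largest switch. Its counts were 0, 4 and 1 in shCtrl-CTRL, 115, 122 and 95 in shCtrl-OGDR, 93, 95 and 85 in shAnxa2-CTRL and 4, 2 and 3 in shAnxa2-OGDR. shCtrl-OGDR and shAnxa2-CTRL were thus high and overlapped each other, and the other groups held at most 4 counts in a library. The means of the high groups were 4.67 ± 0.185 and 4.16 ± 0.683 CPM (SD, n = 3). The log2 fold change after OGD/R was 6.08 (SE 0.376) in shCtrl and −4.86 (SE 0.354) in shAnxa2 cells. The knockdown line differed from the control line by 5.91 (SE 0.386) untreated and by −5.03 (SE 0.346) after OGD/R. Subtracting the OGD/R change in shCtrl from that in shAnxa2 cells gives the interaction of line and OGD/R, −10.94 (SE 0.518), which was the largest in size of the 11626. The low side rests on few counts, and without replicate 2 of shCtrl-CTRL the change in shCtrl cells came to 7.56, the difference between the untreated lines to 7.38 and the interaction to −12.42.

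Aqp3 (ENSMUSG00000028435, chromosome 4, minus strand, 41092722 to 41098183) had the same high and the same low groups as Ip6k3. It had 12, 4 and 10 counts in shCtrl-CTRL, 122, 105 and 96 in shCtrl-OGDR, 134, 134 and 93 in shAnxa2-CTRL and 20, 11 and 8 in shAnxa2-OGDR. No library of a low group reached one of a high group. By the mean shAnxa2-CTRL was highest, at 5.56 ± 1.62 CPM, and its libraries overlapped those of shCtrl-OGDR, at 4.56 ± 0.489 CPM. After OGD/R the log2 fold change was 3.75 (SE 0.334) in shCtrl and −3.19 (SE 0.306) in shAnxa2 cells. Between the lines it was 4.03 (SE 0.327) untreated and −2.91 (SE 0.312) after OGD/R.

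Zc3h6 (ENSMUSG00000042851, chromosome 2, plus strand, 128809322 to 128860483) separated all 4 groups. Its counts were 13, 25 and 17 in shCtrl-CTRL, 252, 210 and 225 in shCtrl-OGDR, 138, 124 and 167 in shAnxa2-CTRL and 6, 12 and 9 in shAnxa2-OGDR. shCtrl-OGDR, at 9.80 ± 1.76 CPM, stood above shAnxa2-CTRL, at 6.45 ± 0.421 CPM, and shAnxa2-OGDR was lowest. The log2 fold change after OGD/R had nearly the same size with opposite signs, 3.79 (SE 0.199) in shCtrl and −3.95 (SE 0.244) in shAnxa2 cells. Between the lines it was 3.19 (SE 0.210) untreated and −4.54 (SE 0.230) after OGD/R. Zc3h6 overlaps Gm14027 on its own strand by 1612 bases and Gm10762 on the other strand by 324 bases in the GRCm38 annotation, and reads of these stretches cannot be assigned with certainty (the kit did not mark strand).

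Of the neighbouring vanin genes on the plus strand of chromosome 10, Vnn3 switched and Vnn1 was not detected. Vnn3 (ENSMUSG00000020010, 23727360 to 23745741) had 29, 33 and 35 counts in shCtrl-CTRL, 498, 462 and 346 in shCtrl-OGDR, 130, 151 and 172 in shAnxa2-CTRL and 18, 20 and 16 in shAnxa2-OGDR. No group overlapped another, and shCtrl-OGDR was far above shAnxa2-CTRL. The log2 fold change after OGD/R was 3.88 (SE 0.134) in shCtrl and −3.04 (SE 0.169) in shAnxa2 cells. Between the lines it was 2.46 (SE 0.149) untreated and −4.46 (SE 0.150) after OGD/R. Vnn1 (ENSMUSG00000037440, 23770586 to 23781241), 24844 bases further on, had 0 counts in 12 of 12 libraries, which allows a level of up to 0.110 CPM in the deepest and 0.154 CPM in the shallowest (3 counts, counting error only). The longest run of bases that annotated transcripts of the vanins share was 12 bases.

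Jsrp1 (ENSMUSG00000020216, chromosome 10, minus strand, 80644330 to 80649332) was high in a single group. It had 5, 9 and 12 counts in shCtrl-CTRL, 101, 81 and 88 in shCtrl-OGDR, 13, 18 and 21 in shAnxa2-CTRL and 3, 3 and 8 in shAnxa2-OGDR. Cells labelled shAnxa2-CTRL lay just above the lowest groups, by a gap of 1.44 times to untreated control cells and of 1.64 times to cells labelled shAnxa2-OGDR. Upon OGD/R its log2 fold change was 3.51 (SE 0.302) in shCtrl and −1.84 (SE 0.457) in shAnxa2 cells. Between the lines it was 1.23 (SE 0.397) untreated and −4.12 (SE 0.345) after OGD/R. Without replicate 3 of shAnxa2-OGDR the change in shAnxa2 cells came to −2.50 and the difference after OGD/R to −4.79.

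Dmpk (ENSMUSG00000030409, chromosome 7, plus strand, 18817774 to 18827746) ran the other way. It had 104, 93 and 100 counts in shCtrl-CTRL, 18, 18 and 9 in shCtrl-OGDR, 16, 4 and 14 in shAnxa2-CTRL and 37, 39 and 48 in shAnxa2-OGDR. shCtrl-OGDR and shAnxa2-CTRL, the high groups of Ip6k3 and Aqp3, were its low groups and overlapped each other. Cells labelled shAnxa2-OGDR, at 1.92 ± 0.390 CPM, had 50.5% of the level of untreated control cells, 3.81 ± 0.482 CPM. With OGD/R the log2 fold change was −2.58 (SE 0.275) in shCtrl and 1.89 (SE 0.329) in shAnxa2 cells. Between the lines it was −2.88 (SE 0.291) untreated and 1.59 (SE 0.310) after OGD/R.

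Draxin (ENSMUSG00000029005, chromosome 4, minus strand, 148182894 to 148215155) was low in a single group. It had 28, 41 and 42 counts in shCtrl-CTRL, 6, 7 and 3 in shCtrl-OGDR, 29, 31 and 35 in shAnxa2-CTRL and 39, 39 and 42 in shAnxa2-OGDR. The untreated lines overlapped, and cells labelled shAnxa2-OGDR lay above those labelled shAnxa2-CTRL by a gap of 1.04 times. OGD/R gave a log2 fold change of −2.63 (SE 0.344) in shCtrl and 0.36 (SE 0.239) in shAnxa2 cells. Between the lines it was 0.02 (SE 0.242) untreated and 3.01 (SE 0.336) after OGD/R. Draxin thus had a large change in shCtrl cells beside a small one of the opposite sign in shAnxa2 cells. It overlaps Mad2l2 on the other strand by 315 bases, and reads of this stretch cannot be assigned with certainty either. Mad2l2 had 290 to 517 counts a library.

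**Figure D1:**
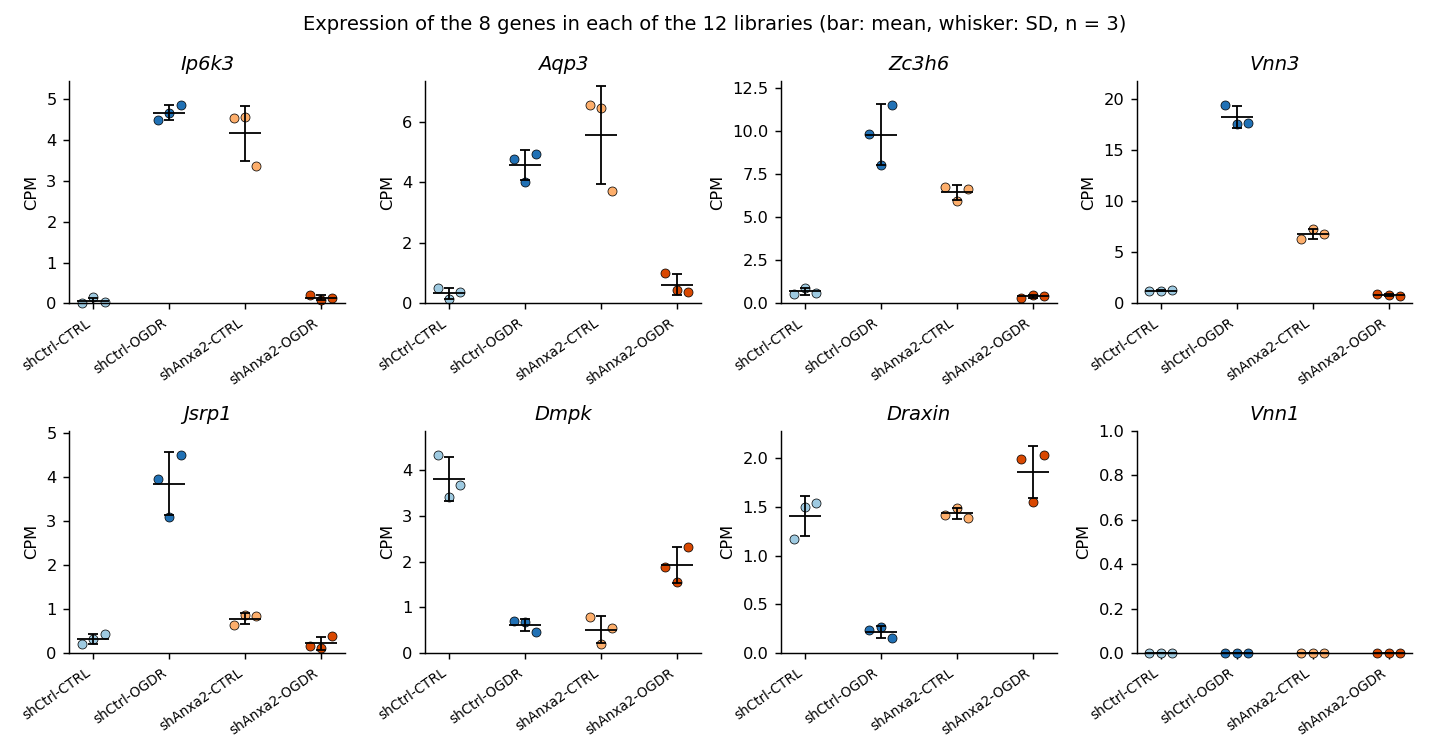
Level of the 8 genes in CPM in each library (points) of the 4 groups, with the mean and SD of 3 libraries. Ip6k3, Aqp3, Zc3h6 and Vnn3 were high in shCtrl-OGDR and shAnxa2-CTRL, Jsrp1 was high in shCtrl-OGDR, Draxin was low there, Dmpk was low in shCtrl-OGDR and shAnxa2-CTRL, and Vnn1 had 0 counts.

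After OGD/R in shCtrl cells 5 of the 7 genes were higher and 2 lower with no overlap of libraries, which was so for 34.7% and 33.3% of all genes tested. In shAnxa2 cells 5 were lower and 2 higher, beside 28.8% and 30.1% of all genes. Between the lines labelled CTRL 5 were higher in shAnxa2 and 1 lower, beside 31.6% and 32.0%. After OGD/R 5 were lower in shAnxa2 and 2 higher, beside 35.3% and 34.6%. These counts follow from how the genes were selected. Ordered by the size of the interaction, Ip6k3 ranked 1, Zc3h6 4, Aqp3 8, Vnn3 9, Jsrp1 22, Dmpk 40 and Draxin 168.

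**Figure D2:**
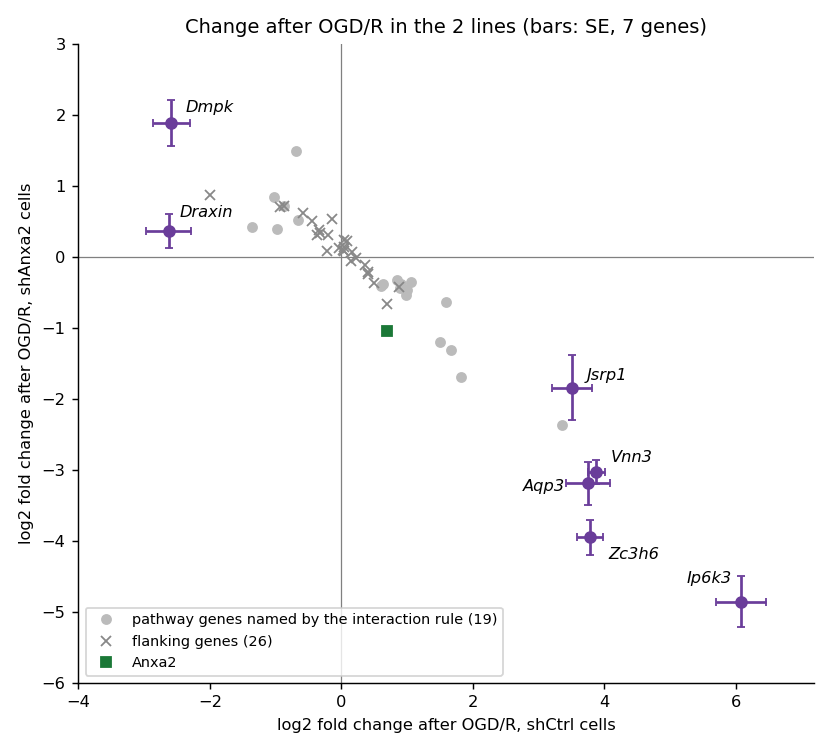
Log2 fold change after OGD/R in shCtrl cells (horizontal) and in shAnxa2 cells (vertical) of the 7 genes with counts (bars, SE), Anxa2, related genes and flanking genes. Ip6k3 lies farthest out, at 6.08 and −4.86, Dmpk lies on the opposite side at −2.58 and 1.89, and Draxin lies near 0 on the vertical axis.

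Cells labelled shAnxa2-CTRL were next set beside treated control cells. For Ip6k3 they had 89.1% of the level of treated control cells, a log2 difference of −0.17 (SE 0.188) with overlapping libraries. For Aqp3 the difference was 0.28 (SE 0.215), also with overlap. Zc3h6 was at 65.8% (−0.59, SE 0.144), Vnn3 at 37.3% (−1.42, SE 0.105) and Jsrp1 at 20.2% (−2.28, SE 0.268), each without overlap. The genes that were high after OGD/R in shCtrl cells thus formed a graded series in cells labelled shAnxa2-CTRL. The difference was −0.30 (SE 0.399) for Dmpk, with overlap, and 2.65 (SE 0.350) for Draxin, without.

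**Figure D3:**
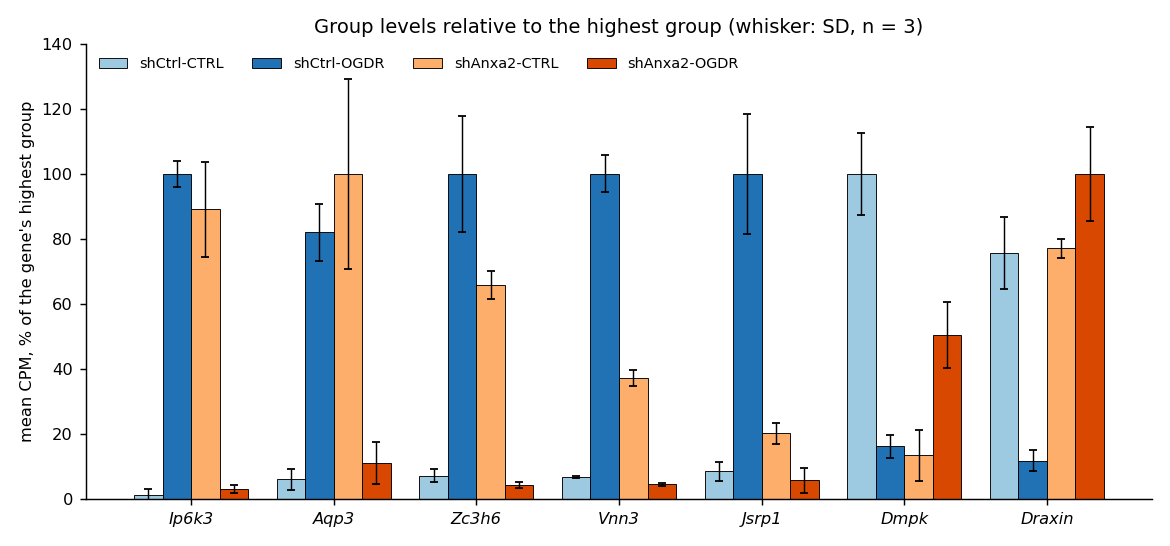
Mean CPM of each group as a percentage of the highest group of the gene, with the SD of 3 libraries, for the 7 genes with counts. Cells labelled shAnxa2-CTRL stood at 89.1% for Ip6k3, 65.8% for Zc3h6, 37.3% for Vnn3 and 20.2% for Jsrp1.

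Cells labelled shAnxa2-OGDR were set beside untreated control cells in the same way. The log2 difference was 1.05 (SE 0.814) for Ip6k3 and 0.84 (SE 0.498) for Aqp3, both with overlap. It was −0.76 (SE 0.361) for Zc3h6 and −0.58 (SE 0.224) for Vnn3, both without overlap, and −0.61 (SE 0.530) for Jsrp1, with overlap. For Dmpk it was −0.99 (SE 0.230), without overlap (at most 2.33 CPM against at least 3.41 in untreated control cells). For Draxin it was 0.38 (SE 0.233), without overlap by a narrow gap (at least 1.549 CPM against at most 1.544).

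Over the 12 libraries the Pearson correlation of log2(CPM + 0.5) was 0.979 between Ip6k3 and Zc3h6, 0.972 between Ip6k3 and Aqp3 and 0.976 between Vnn3 and Zc3h6. Jsrp1 was closer to Vnn3 (0.929) than to Aqp3 (0.701). Dmpk was opposite to Aqp3 (−0.918), Draxin was opposite to Jsrp1 (−0.935), and Draxin and Dmpk had 0.462 with each other. The points share their 4 groups, so these values largely restate the group means. Per kb of exon, the highest group mean was 10.1 CPM for Vnn3, 3.04 for Aqp3, 2.89 for Jsrp1, 1.73 for Zc3h6, 0.880 for Dmpk and 0.357 for Draxin, against 74.7 for Anxa2.

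To ask whether the pathways of these genes moved as well, 7 lists with 138 related genes were read from the same model, of which 97 were tested. After OGD/R 29 rose and 33 fell in shCtrl cells (adjusted p under 0.05, edgeR), beside 32.4% and 31.0% of all genes, and 26 rose and 26 fell in shAnxa2 cells, beside 28.2% and 26.8%. In shAnxa2 against shCtrl 26 were higher and 35 lower untreated, beside 29.5% and 29.7%, and 30 and 35 after OGD/R, beside 33.8% and 34.2%. In the interaction 39 (40.2%) were above and 32 (33.0%) below 0, beside 34.9% and 35.1%. With a log2 value of at least 1 there remained 6 (6.19%) above and 13 (13.4%) below 0, beside 8.83% and 12.7%. The related genes thus passed these limits about as often as all genes did. The median interaction of a list lay between −0.23 and 0.34, against −0.01 for all genes.

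Of the inositol phosphate genes around Ip6k3, 16 of 18 were tested, 5 above and 6 below 0 in the interaction. The other inositol hexakisphosphate kinases were abundant, with 919 to 1405 counts a library for Ip6k1 and 330 to 499 for Ip6k2. Ip6k1 had an interaction of −0.13 (SE 0.0891, adjusted p = 0.204 from edgeR). Ip6k2 had −0.29 (SE 0.124, adjusted p = 0.0413 from edgeR), and with the replicate number as a block, or when any one of 7 libraries was left out, it did not pass 0.05. Itpka, which phosphorylates inositol trisphosphate, had 4 to 22 counts and an interaction of −2.23 (SE 0.653, adjusted p = 0.00397 from edgeR), the sign of Ip6k3.

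Around the vanins, 18 of 19 genes of pantetheine, coenzyme A and cysteamine handling were tested, 7 above and 8 below 0 in the interaction. Coasy, which carries out the last steps of coenzyme A synthesis, rose on the log2 scale after OGD/R in shCtrl cells by 0.91 (SE 0.0650, adjusted p = 1.5e-11 from edgeR) and fell in shAnxa2 cells, −0.38 (SE 0.0642, adjusted p = 2.66e-05 from edgeR). Pank2, a kinase of the first step, had an interaction of −1.01 (SE 0.0961), and the mitochondrial coenzyme A carrier Slc25a42 had −1.03 (SE 0.205). Slc5a6, a transporter that takes up pantothenate, had the opposite sign, 1.88 (SE 0.0936, adjusted p = 1.06e-14 from edgeR).

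Among CCCH zinc finger genes 20 of 22 were tested, 9 above and 6 below 0. Zc3h4, a relative of Zc3h6, had 2653 to 4338 counts a library and an interaction of 0.31 (SE 0.0680, adjusted p = 0.000249 from edgeR), of the opposite sign to Zc3h6. Zc3h12a, an RNase that degrades cytokine messages, had −1.46 (SE 0.0923), and Zc3h12c had −1.40 (SE 0.0840). The mRNA decay factors Zfp36l1 and Zfp36l2 had −1.34 (SE 0.106) and 1.17 (SE 0.0740), and thus opposite signs.

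Of the aquaporin and glycerol genes 7 of 15 were tested, 2 above and 1 below 0, and Aqp4 and Aqp6 had no count. Aqp9, an aquaglyceroporin like Aqp3, had 41, 38 and 33 counts in shCtrl-CTRL, 145, 121 and 96 in shCtrl-OGDR, 98, 72 and 96 in shAnxa2-CTRL and 26, 29 and 26 in shAnxa2-OGDR. It was high in the groups in which Aqp3 was high. It rose on the log2 scale after OGD/R in shCtrl cells by 1.82 (SE 0.186, adjusted p = 7.47e-09 from edgeR) and fell in shAnxa2 cells, −1.69 (SE 0.206, adjusted p = 2.62e-07 from edgeR). Aqp8 had 4 to 34 counts a library and an interaction of the opposite sign, 1.79 (SE 0.479, adjusted p = 0.00195 from edgeR).

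Of the genes of sarcoplasmic reticulum calcium handling around Jsrp1, 15 of 30 were tested, 5 above and 5 below 0. The muscle proteins that Jsrp1 binds were scarce, with at most 4 counts a library for Cacna1s, a subunit of the dihydropyridine receptor, and at most 6 for the calsequestrin Casq1. Hrc, a histidine-rich calcium-binding protein of this compartment, had 2, 10 and 8 counts in shCtrl-CTRL, 69, 66 and 55 in shCtrl-OGDR, 8, 14 and 11 in shAnxa2-CTRL and 1, 3 and 2 in shAnxa2-OGDR. Like Jsrp1 it was high in treated control cells. It rose on the log2 scale after OGD/R in shCtrl cells by 3.37 (SE 0.334, adjusted p = 4.53e-09 from edgeR) and fell in shAnxa2 cells, −2.37 (SE 0.596, adjusted p = 0.00163 from edgeR). The calcium pump Atp2a3 had an interaction of −2.97 (SE 0.321), Fkbp1b one of −1.52 (SE 0.191) and the inositol trisphosphate receptor Itpr2 one of −1.16 (SE 0.130). The calcium release channel Ryr1 had the opposite sign, 2.19 (SE 0.370, adjusted p = 1.24e-05 from edgeR).

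In the netrin and Wnt list around Draxin 8 of 19 genes were tested, 3 above and 2 below 0, and Dcc, a netrin receptor, had at most 1 count in a library. Ntn1, netrin-1, had 126, 122 and 120 counts in shCtrl-CTRL, 364, 306 and 273 in shCtrl-OGDR, 217, 250 and 285 in shAnxa2-CTRL and 120, 94 and 106 in shAnxa2-OGDR. Its interaction, −2.69 (SE 0.197, adjusted p = 1.27e-11 from edgeR), had the opposite sign to that of Draxin. Of the kinases and CUG repeat binding proteins related to Dmpk 13 of 15 were tested, 8 above and 4 below 0, and the Hippo kinase Lats2 had 1.37 (SE 0.281, adjusted p = 0.000139 from edgeR).

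**Figure D4:**
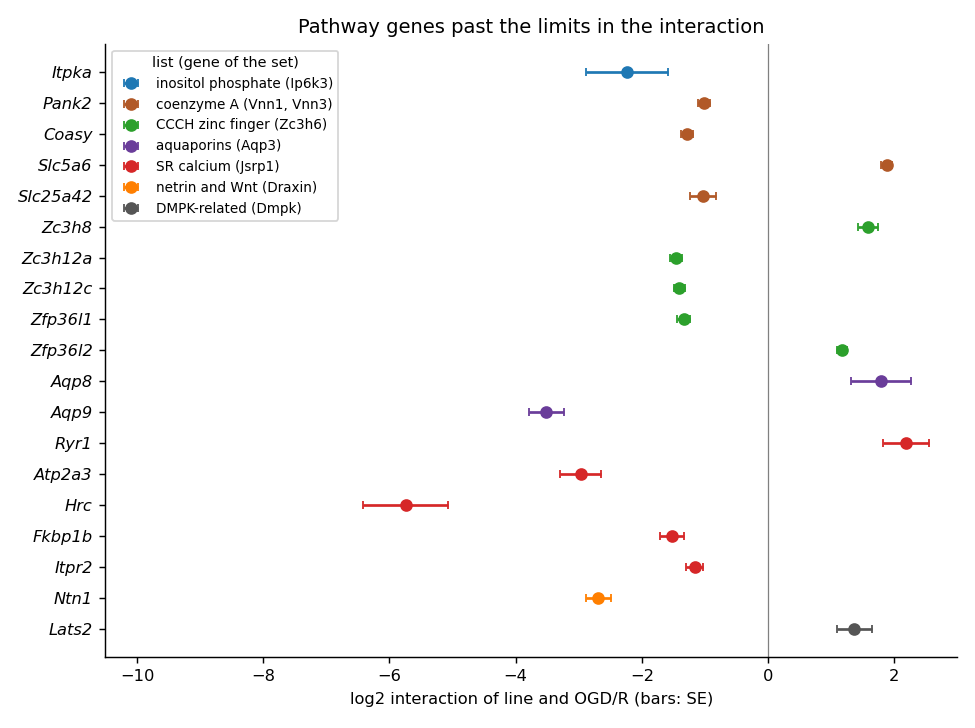
Log2 interaction of line and OGD/R, with the SE, of the 19 related genes past an adjusted p of 0.05 and a log2 value of 1 in either direction. Hrc, at −5.74, lies farthest from 0. Below 0 lie 13 genes (13.4% of the related genes tested, beside 12.7% of all genes). Above 0 lie 6 (6.19%, beside 8.83%).

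The tested genes beside each of the 7 were read next, up to 2 on each side within 500 kb, 26 in all. In the interaction 11 (42.3%) were above and 7 (26.9%) below 0 with an adjusted p under 0.05 in edgeR, beside the 34.9% and 35.1% of all genes. Of these 18, 10 had the sign of the gene they flank and 8 the opposite sign. Dmwd, 1073 bases before Dmpk on the same strand, had 380, 516 and 468 counts in shCtrl-CTRL, 123, 103 and 83 in shCtrl-OGDR, 120, 156 and 168 in shAnxa2-CTRL and 228, 321 and 254 in shAnxa2-OGDR. It was low in the same groups as Dmpk, and its interaction was 2.87 (SE 0.163, adjusted p = 1.2e-13 from edgeR). Six5, 773 bases beyond Dmpk, had 44 to 97 counts and an interaction of 0.67 (SE 0.272, adjusted p = 0.031 from edgeR), which did not pass 0.05 when any one of 5 libraries was left out (lowest value 0.47, without replicate 3 of shAnxa2-OGDR).

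Beside Ip6k3, Lemd2 at 21805 bases had −1.30 (SE 0.0768, adjusted p = 2.33e-13 from edgeR), and Itpr3 at 21742 bases on the other side had 0.16 (SE 0.0897, adjusted p = 0.107 from edgeR). Beside Zc3h6, Zc3h8 at 23325 bases and Polr1b, an RNA polymerase I subunit, at 82432 bases had 1.59 (SE 0.161) and 1.63 (SE 0.0957), the opposite sign to Zc3h6. Tmem87b had −0.86 (SE 0.0984), the sign of Zc3h6. Beside Aqp3, Nol6 and Nfx1 had 1.20 (SE 0.0778) and 0.30 (SE 0.0754), again opposite, and Chmp5 and Ube2r2 had −0.61 (SE 0.0932) and −0.65 (SE 0.0924), the sign of Aqp3. Beside Draxin, Fbxo6 had −1.35 (SE 0.119), opposite to Draxin, Agtrap had 0.51 (SE 0.117), the sign of Draxin, and the overlapping Mad2l2 had −0.24 (SE 0.144, adjusted p = 0.14 from edgeR). Beside Jsrp1, Amh at 848 bases had 4 to 25 counts and an interaction of 0.68 (SE 0.629, adjusted p = 0.338 from edgeR). Sf3a2 and Lsm7 had 0.66 (SE 0.101) and 0.95 (SE 0.135), opposite to Jsrp1, and Oaz1 had −0.47 (SE 0.0708), its sign. Rps12 and Stx7, on either side of the vanins, had 0.19 (SE 0.0802) and −0.20 (SE 0.0622), against −6.92 (SE 0.214) for Vnn3. The call of Rps12 (adjusted p = 0.0358 from edgeR) was lost with a filter of 1 CPM and with library totals only. It was also lost in several fits with 1 library left out (lowest value 0.128, without replicate 1 of shAnxa2-CTRL).

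**Figure D5:**
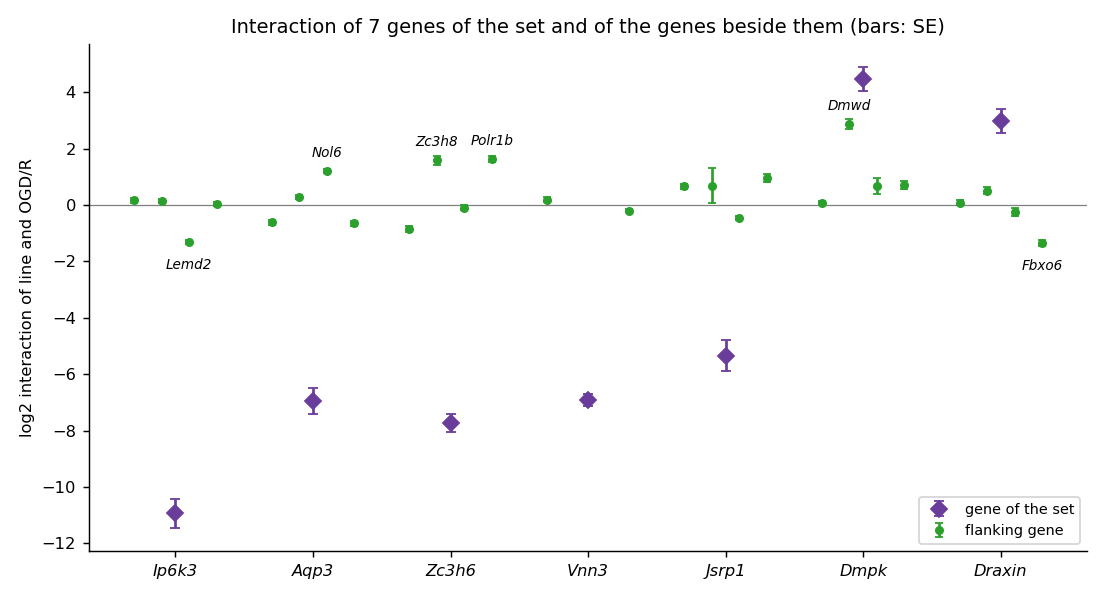
Log2 interaction of line and OGD/R, with the SE, of the 7 genes with counts and of the tested genes beside them. Flanking genes lie between −1.35 (Fbxo6) and 2.87 (Dmwd), and the 7 genes between −10.94 and 4.47.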

How the data were processed

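The authors deposited raw counts of reads per gene, not normalized, for the 12 libraries. The study's methods, written for hippocampi, name Tophat 2 and HTSeq, and the submitters' processing notes name HISAT2 2.0.4 and mm39. Another 12 per-sample columns, normalized with DESeq2 per the file header, were not used. Replicates of a group differed by more than counting error (chi-square per gene of at least 3.89). The sources used here name no batch. Depth was 19521877 counts or more a library, and p-values measure the spread between the libraries of a group.

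The 8 genes, the lists and the rules for other genes were chosen with earlier results of these data known. The model was fitted in edgeR 4.0.16 (R 4.3.3) to all libraries at once, with TMM and a minimum of 0.5 CPM in 3 libraries. Adjusted p-values are from its quasi-likelihood test, by the Benjamini-Hochberg method over every gene tested, and an SE is the size of the log2 fold change divided by the square root of F. Steps were tested on simulated data. Related genes were named at an adjusted p under 0.05 and a log2 interaction of at least 1, beside Ip6k1, Ip6k2, Zc3h4, Six5, Dmwd, the flanking genes and the 3 genes most correlated with each of the 7, of which 1 is not reported here. Aqp4, Aqp6, Cacna1s, Casq1 and Dcc were named after their counts were seen. So were Bnip3, Pdk1, Pfkfb3, P4ha1, Slc2a1, Hk2 and Kdm3a among the genes induced by low oxygen. Zc3h11a stands for the better counted of the genes with that name. Exon lengths and overlaps are from GENCODE M21 (GRCm38). Alternatives were other normalizations, filters and prior counts, DESeq2 1.42.0, limma 3.58.1 (voom), a replicate block, fits of only the groups compared and leaving out each library. Tables and plots were made in Python 3.11.15.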

Additional observations from a re-analysis of the deposited data

Results flagged for a closer look

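The change after OGD/R differed between the lines, by the interaction term, for all genes given here. Each value rests on the CTRL and OGDR names of the shAnxa2 libraries. Most genes of the low-oxygen list, which was written with the results known, ran against these names. Whether the names were exchanged was not tested. For the selected genes this difference is part of how they were chosen and is a description, on the log2 scale −10.9 for Ip6k3, −7.74 for Zc3h6, −6.95 for Aqp3, −6.92 for Vnn3, −5.35 for Jsrp1, 2.99 for Draxin and 4.47 for Dmpk. The related genes passed an adjusted p of 0.05 in edgeR and a log2 value of 1. Among calcium handling genes the value was −5.74 for Hrc, −2.97 for Atp2a3, −1.52 for Fkbp1b, −1.16 for Itpr2 and 2.19 for Ryr1. It was −3.51 for Aqp9, 1.79 for Aqp8, −2.69 for Ntn1, −2.23 for Itpka and 1.37 for Lats2. Among coenzyme A genes it was −1.28 for Coasy, −1.03 for Slc25a42, −1.01 for Pank2 and 1.88 for Slc5a6. Among CCCH zinc finger genes it was −1.46 for Zc3h12a, −1.40 for Zc3h12c, −1.34 for Zfp36l1, 1.17 for Zfp36l2 and 1.59 for Zc3h8.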

How the results depend on the processing

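The 30 counts of all, related and flanking genes past an adjusted p of 0.05 stayed within 1.5 times the reported count under every alternative run, with a largest ratio of 1.2 over the settings and of 1.43 when 1 library was left out. Same-numbered libraries of different groups had correlations of −0.0779 to 0.184 (median 0.0150) in their deviations from the group means. Libraries of different numbers had −0.147 to 0.110 (median 0.00018). No clear pairing by number was seen, though these values cannot show that there was none. With the replicate number as a block, the interaction was above 0 for 4043 and below 0 for 4071 of all genes, against 4059 and 4077, and for 37 and 31 of the related genes. Among the interactions of named genes, Ip6k2 alone lost its call under the block. No log2 fold change of the 7 genes changed sign except that of Draxin between the untreated lines, which was 0.02 and became −0.09 without replicate 1 of shCtrl-CTRL and −0.00825 without replicate 2 of shAnxa2-CTRL. Under other settings of the model 3 moved by more than the spread between replicates and 270 did not, and those that moved were 6.35 and 6.15 for Ip6k3 with voom (OGD/R in shCtrl cells, untreated lines) and −11.11 with DESeq2 (interaction). Another prior count moved 4 of the log2 ratios of group means so and 52 did not move so. All that moved were of Ip6k3, with 6.14 and 5.53 after OGD/R in shCtrl cells and 5.98 and 5.37 between the untreated lines, each with the smaller prior first. With 1 library left out 48 moved so and 372 did not, with the range 5.58 to 7.56 for Ip6k3 after OGD/R in shCtrl cells and −0.09 to 0.10 for Draxin between the untreated lines. Of the calls of other named genes 11 were lost and 14 gained under other settings, among them Rps12 in the interaction, and 64 were lost and 31 gained with 1 library left out, and the cause was not tested. Depth limits the low groups of all 7 genes, which held few counts a library.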

Other observations

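The genes most like each of the 7 over the 12 libraries, by the Pearson correlation of log2(CPM + 0.5), are given here with mean CPM in shCtrl-CTRL, shCtrl-OGDR, shAnxa2-CTRL and shAnxa2-OGDR, in that order. For Ip6k3 they were Mvd (0.996), an enzyme of sterol synthesis, Cd38 (0.994) and Vps45 (0.991), and Cd38 stood at 14.7, 41.6, 38.9 and 15.8. For Zc3h6 they were Vegfa (0.995), Ndrg1 (0.993) and Tmco6 (0.992). Vegfa and Ndrg1 are known to be induced by low oxygen, and Ndrg1 stood at 10.8, 72.2, 48.8 and 8.39. For Vnn3 they were Ahnak2 (0.995), Anxa6 (0.994) and Man2b2 (0.994), and Ahnak2 stood at 29.0, 195, 95.3 and 25.4. For Aqp3 they were Tmie (0.985), Trap1 (0.984) and Ncf1 (0.984). For Jsrp1 they were Ift172 (0.990), Nupr1 (0.987) and Golga2 (0.987), and Nupr1, a stress-induced nuclear protein, stood at 9.61, 30.2, 13.2 and 8.09. For Draxin they were Zmpste24 (0.975), Cyp51 (0.971) and Spry2 (0.971). For Dmpk they included Slc17a9 (0.985) and Id3 (0.979), and Id3 stood at 55.6, 15.9, 14.5 and 35.7. The names depended on the measure, and with Spearman's correlation 0 or 1 of 3 stayed for each gene.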
